A study of Homo sapiens with 70 samples.

Results

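Integrins, laminins and collagens are the gene families through which cells bind and build their extracellular matrix, and their transcripts were followed here in cultured MIA PaCa-2 cells, an established human pancreatic ductal adenocarcinoma line. The members were the protein-coding genes whose symbols name an integrin alpha or beta chain, a laminin alpha, beta or gamma chain, or a numbered collagen chain. This gave 81 genes of the 78932 in the table, which holds 20116 protein-coding genes: 17 integrin alpha chains, 8 integrin beta chains, 12 laminin chains and 44 collagen chains. The symbol pattern did not take in ITGA2B, a further integrin alpha chain, at a mean of 0.851 TPM. That gene was placed in the list of other matrix receptors used below. Of these 81, 33 had a mean of at least 1 TPM (transcripts scaled for length and library size) over the libraries treated with DMSO. Another 36 were below 0.1 TPM, and 46 passed the filter on low counts for the comparisons among DMSO libraries.

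The series followed knockdown of the zinc finger protein gene ZBTB11 by CRISPR interference, in which a guide RNA brings dCas9-KRAB, a Cas9 that cannot cut and that carries a repressor domain, to a gene. According to the series' design text the cells were resistant to sotorasib, an inhibitor of mutant K-Ras, and all groups share that background and the inducible repressor. The guide RNA lines were 3: sgNS (taken here as the control guide), sgZBTB11 #1 and sgZBTB11 #2. Each was given either DMSO, the solvent control, or DOX, the inducer, and was sampled at 5 hr and at days 1, 3 and 5. This made 24 groups and 70 poly(A)-selected libraries, 3 per group except for 2 in sgNS DMSO at day 1 and 2 in sgZBTB11 #1 DMSO at day 5. All groups derive from 1 parental line and each guide from 1 labelled line, the labels do not say whether any line was a clone, and a difference between lines cannot be told apart from a difference between the cultures that carry the guides. The labels number the replicates without stating that they were separate cultures, so each p-value is measured against library-to-library spread alone, and that spread may be technical.

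The libraries held 12068842 to 20627642 counts. The share of counts from genes of the mitochondrial genome moved with time, with a mean over libraries of 13.1%, 10.96%, 19.8% and 30.7% at 5 hr, day 1, day 3 and day 5. It also differed between lines and with DOX. At 5 hr it was 13.71% to 14.33% in DMSO and 11.89% to 12.37% in DOX in sgNS. It was 14.04% to 14.1% and 12.23% to 12.35% in sgZBTB11 #1, and 12.52% to 12.71% and 13.14% to 13.4% in sgZBTB11 #2. At day 5 in DMSO it was 25.98% to 26.39% in sgNS, 33.55% to 33.72% in sgZBTB11 #1 and 30.96% to 31.53% in sgZBTB11 #2. The part of this share in line and DOX differences was not tested. ZBTB11 itself stood at 52.8 ± 1.34 CPM (counts scaled to library size, SD, n = 3) in DMSO and 28.4 ± 0.442 (n = 3) in DOX at day 5 in sgZBTB11 #2, at 48.7 ± 2.49 (n = 2) and 36.3 ± 1.79 (n = 3) in sgZBTB11 #1, and at 56.2 ± 4.57 and 50.8 ± 3.44 in sgNS (n = 3 each). At 5 hr it was 55.5 ± 2.71 CPM in DMSO and 55.3 ± 0.407 in DOX in sgZBTB11 #1, and 55.3 ± 1.25 and 48.7 ± 0.697 in sgZBTB11 #2 (n = 3 each), so at that time the DOX mean was lower in the second line by more than the SDs and in the first it was not. In sgNS at 5 hr it was 51.7 ± 1.72 CPM in DMSO and 57.2 ± 3.19 in DOX (n = 3 each). So the control line also moved by more than the SDs, upward. In DMSO, ZBTB11 was not equal between the lines at days 1 and 3. At day 1 it was at 45.2 to 50.7 CPM in sgZBTB11 #1, 41 to 48.9 in sgZBTB11 #2 and 51.2 to 51.4 in sgNS. At day 3 it was at 45.6 to 46.9, 44.4 to 47.2 and 50 to 58.2 CPM in the same order. Among 8 epithelial or ductal markers, KRT18 and KRT8 carried nearly all of the signal, with means of 2085 and 1198 TPM. KRT19 (86.98 TPM), CLDN4 (34.12) and MUC1 (31.28) were also expressed, and KRT7 was low (0.155). EPCAM and CDH1, defining genes of epithelium, were nearly absent at means of 0.0251 and 0.0199 TPM. The sum of these 8 markers also moved with time, from 6008 to 6847 TPM across libraries at 5 hr to 1422 to 1978 TPM at day 5. The mesenchymal marker VIM averaged 3376 TPM, TWIST1 was at 0 in every library, and the 6 fibroblast markers together never exceeded 0.41 TPM. Of the endothelial markers CDH5 averaged 5.774 TPM, while PECAM1, VWF and KDR averaged 0.0109, 0.019 and 0.0003 TPM.

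An integrin is a heterodimer of an alpha and a beta chain that spans the plasma membrane, binds matrix proteins or other cells outside, and connects through talin and kindlin to actin inside. Laminins are trimers of an alpha, a beta and a gamma chain that polymerise into the basement membrane, and collagens are triple helices of chains, identical or different, whose stoichiometry depends on which chain genes a cell transcribes. In pancreatic ductal adenocarcinoma most fibrillar collagen is attributed to stromal fibroblasts. These cultures hold the tumour line alone, by their labels.

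Several members lie next to each other in the genome. COL4A1 and COL4A2, the chains of the common basement membrane collagen, are transcribed away from each other on chromosome 13 with start sites 127 bases apart, so the 126 bases between them belong to both promoters. COL6A1 and COL6A2, encoding a pair of the chains of collagen VI, sit in the same orientation on chromosome 21 with a gap of 93063 bases, whereas the gene of the third chain, COL6A3, lies on chromosome 2. The 250 bases upstream of the start site are shown for 4 of these genes because the time courses of these chains are compared below. They were read from RefSeq promoters of build GRCh38.p14, are written 5′ to 3′ on the strand of the gene, and have each GC box (GGGCGG on either strand) in capitals.
COL4A1, chr13:110307158-110307407, minus strand: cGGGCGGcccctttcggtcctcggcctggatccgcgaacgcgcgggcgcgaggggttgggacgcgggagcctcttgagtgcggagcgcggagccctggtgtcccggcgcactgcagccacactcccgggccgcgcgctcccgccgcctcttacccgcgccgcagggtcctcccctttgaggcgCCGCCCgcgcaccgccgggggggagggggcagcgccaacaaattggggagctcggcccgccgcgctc
COL4A2, chr13:110307034-110307283, plus strand: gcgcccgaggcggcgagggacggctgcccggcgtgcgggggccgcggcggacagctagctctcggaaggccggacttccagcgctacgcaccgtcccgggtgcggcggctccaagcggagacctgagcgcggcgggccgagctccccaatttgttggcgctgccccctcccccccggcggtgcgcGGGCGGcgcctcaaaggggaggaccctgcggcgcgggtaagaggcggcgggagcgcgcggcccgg
COL6A2, chr21:46097862-46098111, plus strand: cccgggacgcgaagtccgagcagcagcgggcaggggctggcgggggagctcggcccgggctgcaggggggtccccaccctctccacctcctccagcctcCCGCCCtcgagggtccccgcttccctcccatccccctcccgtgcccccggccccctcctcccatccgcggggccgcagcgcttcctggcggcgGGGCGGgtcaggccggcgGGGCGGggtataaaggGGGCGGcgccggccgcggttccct
COL6A3, chr2:237414165-237414414, minus strand: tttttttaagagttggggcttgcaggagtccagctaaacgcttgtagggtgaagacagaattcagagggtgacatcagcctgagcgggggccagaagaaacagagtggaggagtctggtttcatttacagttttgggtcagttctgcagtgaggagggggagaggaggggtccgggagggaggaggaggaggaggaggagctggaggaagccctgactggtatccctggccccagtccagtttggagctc

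The promoter windows of COL6A2 and COL6A3 differed in composition, with 79.6% and 56% G or C. COL6A2 held 4 GC boxes and 1 TATAAA, which overlapped none of them, and COL6A3 held none of the motifs searched. COL4A1 held 2 GC boxes and COL4A2 held 1, and each held 1 CCAAT. The GC box of COL4A2 and the CCAAT of both genes lie in the bases that their windows share. They are the same sites read on opposite strands, and each is counted for both genes. Promoter entries were found for 57 of the 81 members, among which 54.4% held a GC box against 42.3% of all 27305 promoters of the same length. CCAAT was held by 21.1% against 33%, TGANTCA (the AP-1 motif) by 1.75% against 6.6%, GGAATG (a TEAD motif) by 8.77% against 11.9% and TATAAA by 10.5% against 11.1%, all on either strand. These matches describe the letters of the windows only.

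The matrix repertoire of these cells was uneven. By mean TPM over the 34 DMSO libraries, the highest member was ITGB1, the beta chain shared by most matrix-binding integrins, at 258.5 TPM (196.6 to 325.9 over libraries; ENSG00000150093.20, chr10:32900318-32958230). LAMB2, a laminin beta chain, followed at 244.1 TPM, then COL1A2, the alpha 2 chain of collagen I, at 145.9, LAMA5, the laminin alpha 5 chain, at 140.6, and COL6A1 at 119.1 TPM. Below these came COL17A1, a transmembrane collagen of hemidesmosomes (93.6 TPM), ITGA3, a laminin-binding alpha chain (84.7), COL6A2 (77.2), COL5A2 (52.4) and COL18A1, the basement membrane collagen from which endostatin is cleaved (44.95). The order of the leading genes was partly a matter of scale: the length implied by the ratio of counts to TPM was under 25% of the longest annotated transcript for 6 of the 33 members at 1 TPM or more, LAMB2, ITGAE, LAMA5, LAMA2, COL6A3 and COL7A1, against 4.17% of 12509 coding genes. Per kilobase of longest transcript ITGB1 stayed first at 266 CPM, followed by COL6A1 (84.6), COL1A2 (76), COL6A2 (71.7) and COL5A2 (52.4), while LAMB2 had rank 7 (40.9) and LAMA5 rank 9 (28.9). The expected count of ITGB1 was not a whole number in 98.6% of libraries, so part of its reads were shared out between it and similar sequence and its level is uncertain to that extent.

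Chains that assemble together were not transcribed at like levels. COL1A1, which supplies the other chain of collagen I, averaged 0.364 TPM beside 145.9 TPM of COL1A2. Of the collagen VI chains COL6A3 averaged 5.30 TPM, below COL6A1 and COL6A2, and of the collagen IV chains COL4A2 (7.75) and COL4A1 (2.83) were detected while COL4A6 averaged 0.0015 TPM. Among laminins, LAMA5, LAMB2, LAMC1 (12.45) and LAMB1 (7.02) were present, whereas LAMB3 averaged 0.0997 and LAMA3 0.706 TPM. ITGA6 (5.44) and ITGB4 (11.15), whose products form the hemidesmosome integrin, were both present. ITGAV (4.19), an alpha chain with several beta partners, was accompanied by ITGB1, ITGB5 (10.45), ITGB8 (3.78) and ITGB6 (2.31), while ITGB3 averaged 0.0138 TPM. ITGAE (30.1) and ITGB7 (1.05) form the integrin best known from intraepithelial lymphocytes. Of the immune markers searched, PTPRC averaged 0.0021 TPM, CD3E 0.002, LYZ 0.0207, CD79A 0.264 and CD68 2.17 TPM. ITGA2 and ITGA4, the chains of a collagen and a fibronectin receptor, averaged 0.0156 and 0.0018 TPM. COL10A1 had no count in any library, which allows up to 0.249 CPM in the smallest library by the 3 counts that a count of 0 leaves possible, a limit that covers counting error only. The members below 1 TPM in this paragraph other than ITGB3 were chosen after their values were seen.

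From 5 hr to day 5 in DMSO the balance of these families, in summed CPM, shifted from integrin alpha chains toward collagens. Summed over a family, collagens stood at 1559 ± 95.5 CPM (SD, n = 9 libraries) at 5 hr and then at 1477 ± 37.8, 1994 ± 170 and 2997 ± 206 CPM on days 1, 3 and 5 (n = 8, 9 and 8). No day 5 library (2742 to 3215) overlapped those of 5 hr (1421 to 1686). Laminins went from 511.6 ± 59.5 to 845.1 ± 16.1 CPM over the same span. Integrin alpha chains went the other way, from 468.5 ± 22.9 to 222.5 ± 5.57 CPM, and beta chains from 1350 ± 52.4 to 1036 ± 65. These integrin sums were mostly single genes. The group means of ITGA3 were 342 to 386 CPM at 5 hr and 129.8 to 140.4 CPM at day 5. Those of ITGB1 were 1204 to 1293 CPM and 906 to 1024 CPM. In RNA from whole cultures, fewer cells of a type and less RNA per cell cannot be told apart.

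Tested gene by gene over the 3 lines, 28 of the 46 tested members were higher at day 5 than at 5 hr and 16 were lower (edgeR quasi-likelihood test, adjusted p under 0.05), against a background of 85.9% of 17598 genes called. With nearly all genes called, the count says little of the members, and their sizes of change are given instead. The median change of the members was 0.45 on the log2 scale, beside 0.05 for all genes. By family, 18 collagens rose and 4 fell of 22 (median 0.94), 6 laminins rose and 2 fell of 9 (median 0.43), 3 integrin alpha chains rose and 5 fell of 8 (median -0.50), and 1 beta chain rose and 5 fell of 7 (median -0.37). The 46 members passed a filter on low counts, so genes that are low at every time are not among them. The summed epithelial markers and the mitochondrial share moved over the same time points, and their part in these changes was not tested.

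**Figure D1:**
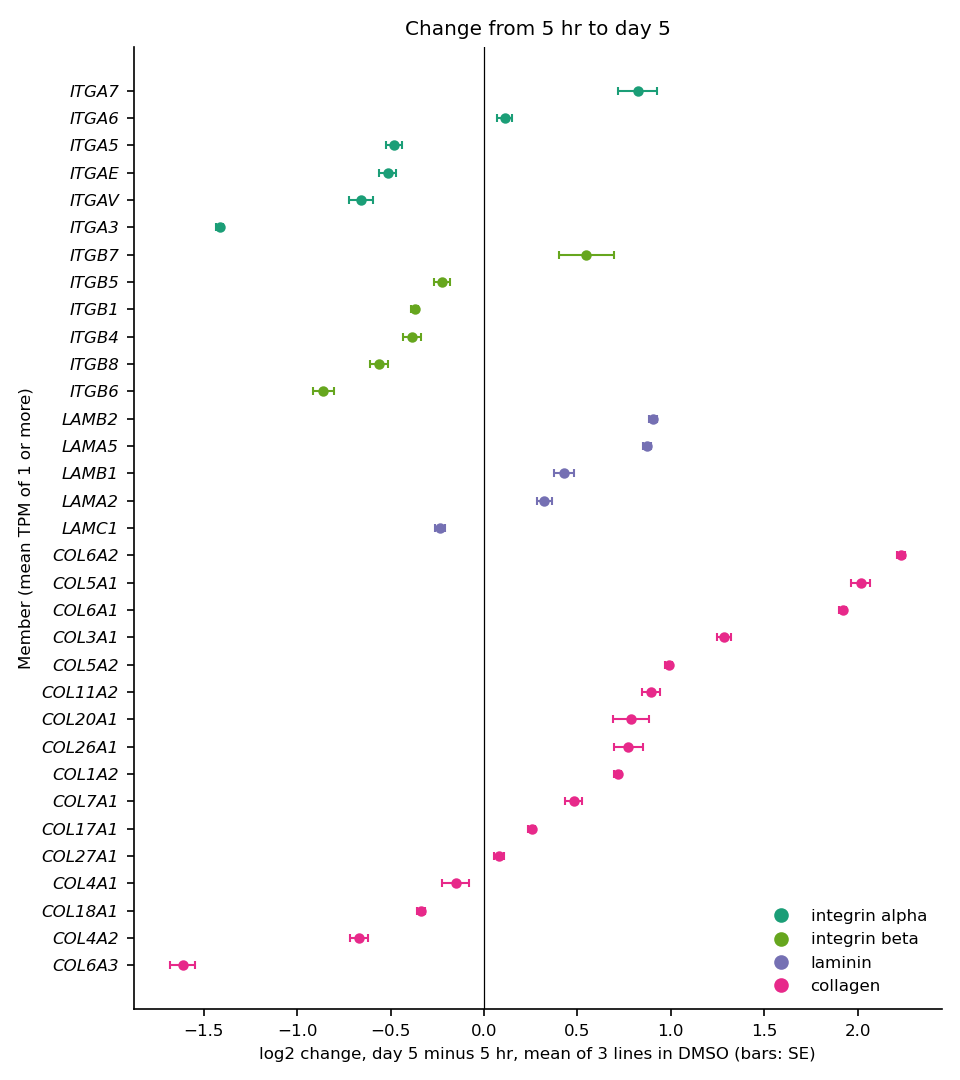
log2 change from 5 hr to day 5 (x axis) of the 33 members with a mean of at least 1 TPM, as the mean of the 3 lines in DMSO, with bars for the SE and colours for the family. Of the 33, 19 lie to the right of 0 and 14 to the left, from COL6A2 at 2.23 to COL6A3 at -1.61.

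Among the integrin alpha chains, ITGA3 (ENSG00000005884.18, chr17:50056110-50090481), whose product pairs with ITGB1 as a laminin receptor, was the sole member that fell at each of the 3 steps. Levels over the DMSO libraries of a time are given here and below as the median, with the lowest and highest library in parentheses. ITGA3 went from 361 CPM (336 to 398) at 5 hr over 246 CPM (231 to 279) at day 1 and 154 CPM (144 to 161) at day 3 to 134 CPM (127 to 146) at day 5. The 5 hr libraries overlapped with no later library, and ITGA3 fell by 1.42 on the log2 scale (SE 0.020, adjusted p 8.39e-52) from 5 hr to day 5. ITGA5, the alpha chain of the classical fibronectin receptor, rose from 22.2 CPM (20.9 to 25.3) at 5 hr to 34.1 CPM (31.2 to 36.6) at day 1 and then fell to 16.3 CPM (14.3 to 17.2) at day 5, with a first step of 0.59 and a second of -0.86 on the log2 scale. ITGAV (ENSG00000138448.13, chr2:186590056-186680901) ran from 28.7 CPM (22.6 to 32.7) at 5 hr over 34.2 CPM (26.8 to 42.8) at day 1 to 17.5 CPM (14.9 to 21.4) at day 5, when every library lay below those of 5 hr. It fell by 0.66 on the log2 scale (SE 0.065, adjusted p 2.22e-10) over the whole span, most of it after day 3 (-0.70). In TPM the sgNS means of ITGAV were 3.06 at 5 hr and 3.18 at day 5, with overlapping libraries. Those of sgZBTB11 #1 went from 4.14 to 2.17 and those of sgZBTB11 #2 from 4.44 to 2.38. ITGAE fell by 0.52 over the span and ITGA6, the laminin-binding chain of hemidesmosomes, changed by 0.11, a call lost in 2 of 6 other settings.

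The beta partners of ITGAV did not move together. ITGB6 (ENSG00000115221.13, chr2:160099671-160200272), whose dimer with ITGAV activates latent TGF-beta, was at 18.4 CPM (17.2 to 19.6) at 5 hr and at 2.35 CPM (1.98 to 3.18) at day 1. It then stood at 6.84 CPM (5.96 to 8.29) at day 3 and 10.5 CPM (8.03 to 11.3) at day 5, so that the day 1 libraries lay far below all others and the level came back only in part. The first step was -2.88 (SE 0.073, adjusted p 1.46e-38) on the log2 scale, the largest fall of any member at 1 TPM or more between neighbouring times, and the second 1.52 (SE 0.087, adjusted p 8.13e-23). ITGB8, the other beta chain known for activating TGF-beta, dipped at the same time, from 44.3 CPM (37.8 to 52.6) to 18.7 CPM (13.3 to 22.04), and was at 36.7 CPM (27.3 to 51.8) at day 3. Its steps were -1.24 (SE 0.050, adjusted p 2.24e-22), 1.00 (SE 0.052, adjusted p 2.18e-19) and -0.32 (SE 0.049, adjusted p 5.25e-07). ITGB5, a vitronectin receptor chain, went the opposite way at day 1, from 31.4 CPM (24.1 to 34.3) to 38.3 CPM (35.8 to 40.9), with no overlap between these libraries, and fell afterwards. ITGB1 lay at 1224 CPM (1167 to 1321) at 5 hr and 942 CPM (790.2 to 1003) at day 1, a step of -0.40 (SE 0.019, adjusted p 3.45e-26), and changed by -0.04 and 0.07 at the later steps. In TPM, ITGB1 averaged 262.9 at 5 hr and 251.4 at day 1 in sgNS. In the guide lines it averaged 288.9 and 271.5 (sgZBTB11 #1) and 315.9 and 239.3 (sgZBTB11 #2). ITGB4, the hemidesmosome beta chain, rose by 0.42 to day 1 and then fell by 0.26 and 0.54.

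**Figure D2:**
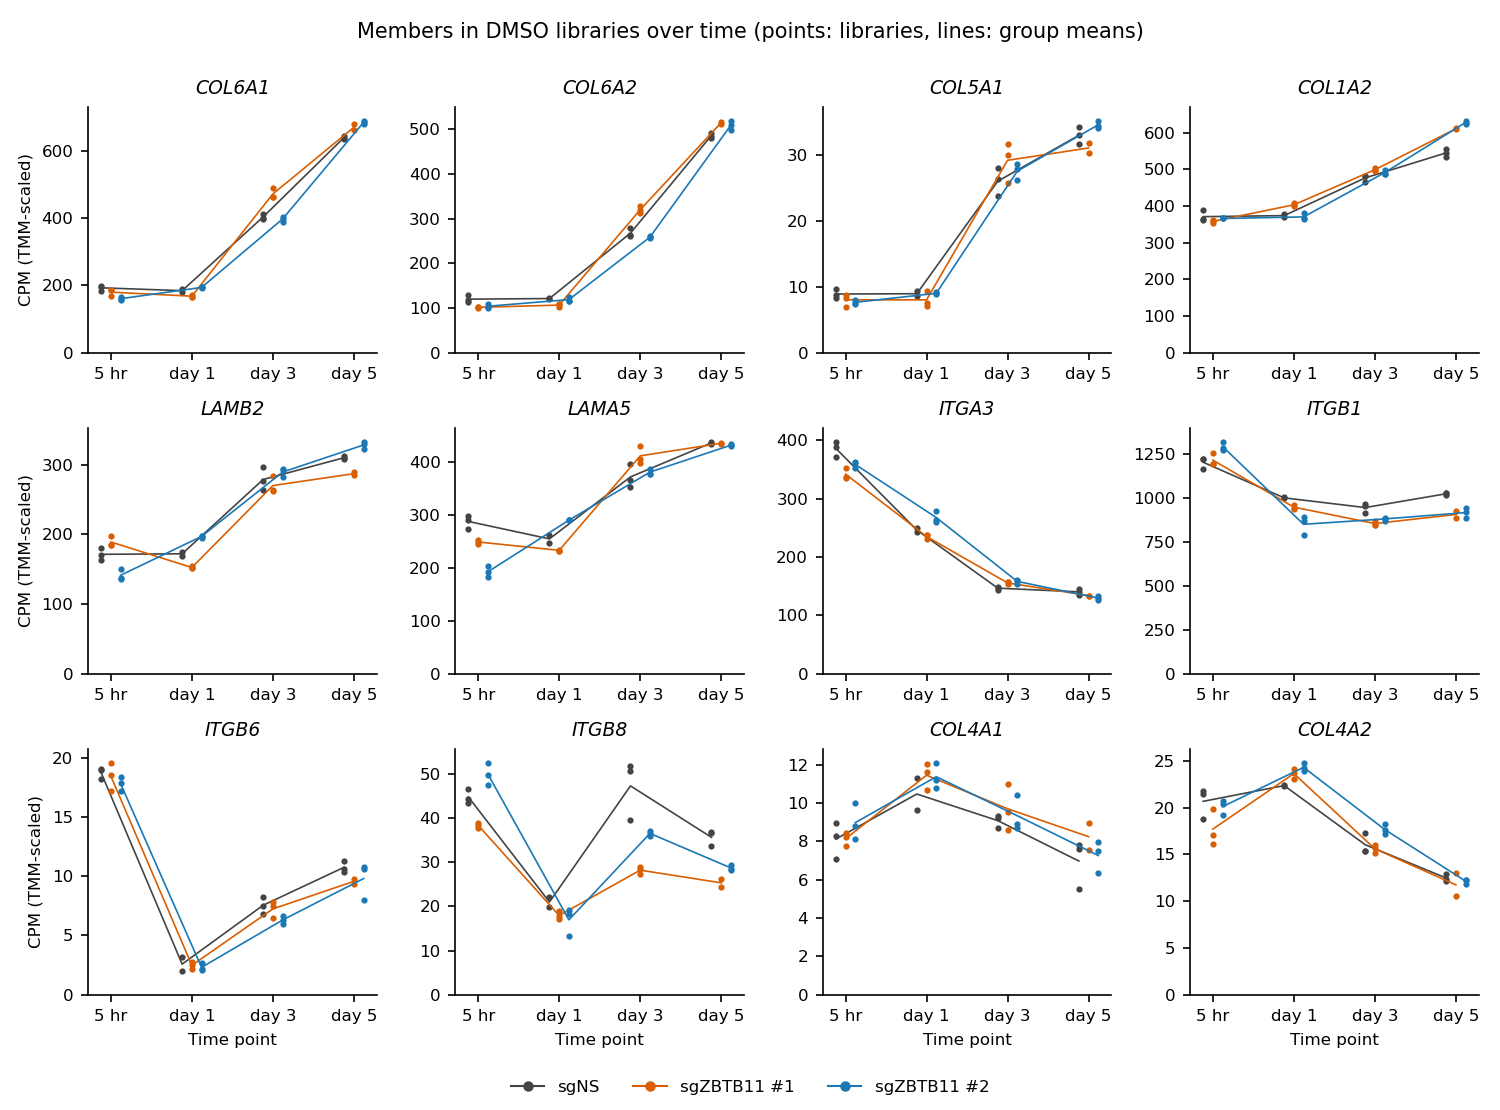
CPM (y axes, linear from 0) of 12 members in the DMSO libraries at 5 hr and days 1, 3 and 5 (x axes), with points for libraries and lines through the group means of sgNS, sgZBTB11 #1 and sgZBTB11 #2. COL6A1 and COL6A2 rise between day 1 and day 5 in all 3 lines, ITGB6 and ITGB8 dip at day 1, and COL4A1 and COL4A2 are highest at day 1.

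Averaged over the 3 lines, the laminin chains LAMB2 and LAMA5 rose at every step. LAMB2 (ENSG00000172037.14, chr3:49121114-49133050) ran from 171 CPM (136 to 198) at 5 hr and 172 CPM (151 to 198) at day 1 to 282 CPM (262 to 296) at day 3 and 311 CPM (285 to 333) at day 5. The libraries of 5 hr and day 1 overlapped and lay below every library of the later times, and LAMB2 rose by 0.90 on the log2 scale (SE 0.023, adjusted p 1.15e-38) in all. The lines differed at the first step, where LAMB2 fell by 0.31 on the log2 scale (SE 0.039, adjusted p 9.24e-10) in sgZBTB11 #1 and rose by 0.50 on the log2 scale (SE 0.039, adjusted p 6.74e-16) in sgZBTB11 #2, and was at 0.01 (SE 0.044, adjusted p 0.854) in sgNS. LAMA5 (ENSG00000130702.15, chr20:62309065-62367312) went from 249.6 CPM (182 to 299) at 5 hr to 435 CPM (431 to 439) at day 5 with no overlap, a change of 0.87 (SE 0.021, adjusted p 2.06e-40). Its first step was a fall of 0.17 in sgNS and 0.09 in sgZBTB11 #1 and a rise of 0.61 in sgZBTB11 #2. LAMC1, the gamma chain with which both assemble, did not follow: it was at 71.2 CPM (62.5 to 77.2) at 5 hr and 59.6 CPM (55.04 to 63.6) at day 5, where its libraries overlapped with those of 5 hr, and it fell by 0.24 on the log2 scale (SE 0.028, adjusted p 2.87e-11). LAMB1, the alternative beta chain, rose by 0.43 and LAMA2, an alpha chain best known from muscle, by 0.32. LAMA4, which was under 1 TPM and was chosen after its values were seen, rose by 2.08 (SE 0.19).

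Of the 33 members at 1 TPM or more, collagen VI chains gave both the largest rise and the largest fall from 5 hr to day 5. COL6A1 (ENSG00000142156.16, chr21:45981770-46005048) was at 183 CPM (156 to 199.7) at 5 hr, 185 CPM (166 to 196) at day 1, 404 CPM (390.1 to 489.9) at day 3 and 671 CPM (637 to 690.3) at day 5. COL6A2 (ENSG00000142173.17, chr21:46098112-46132848), whose promoter is printed above, was at 103 CPM (99.01 to 128), 115 CPM (102 to 125), 264 CPM (256 to 328) and 504 CPM (481 to 519). For both genes the libraries of 5 hr and day 1 overlapped, and each later time lay above the one before it without overlap. COL6A1 rose by 1.92 on the log2 scale (SE 0.020, adjusted p 1.73e-58) and COL6A2 rose by 2.23 on the log2 scale (SE 0.022, adjusted p 1.45e-59) over the span, with steps from day 1 to day 3 of 1.23 and 1.30 and from day 3 to day 5 of 0.64 and 0.83. COL6A3 (ENSG00000163359.17, chr2:237324018-237414164), the third chain, fell by 1.61 on the log2 scale (SE 0.066, adjusted p 9.7e-30), and its levels, which differed between lines, are given below.

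The fibrillar collagen chains rose as well. COL5A1, which helps to set fibril diameter, was at 8.27 CPM (6.97 to 9.6) at 5 hr and 33.6 CPM (30.3 to 35.2) at day 5, and its rise of 2.02 (SE 0.051, adjusted p 1.14e-39) came mostly between day 1 and day 3 (1.69), with 0.24 from day 3 to day 5. COL5A2, its partner chain, was at 272 CPM (256 to 392) and 565 CPM (512 to 709) and rose later, by 0.87 from day 3 to day 5. COL1A2 (ENSG00000164692.19, chr7:94394895-94431227) ran from 364 CPM (353 to 388) at 5 hr over 379.6 (364 to 409) and 488 (466 to 504) to 611 CPM (535 to 633) at day 5, with no overlap from day 1 on, and rose by 0.71 on the log2 scale (SE 0.017, adjusted p 1.68e-41). COL1A1 stayed low throughout, at 0.44 CPM (0.233 to 0.956) at 5 hr and 1.46 CPM (1.04 to 2.2) at day 5. It was chosen here after its values were seen, as the partner of COL1A2, and its rise was 1.64 (SE 0.21, adjusted p 5.72e-10). COL3A1, the chain of collagen III, rose at each step and by 1.28 in all. COL11A2, a minor fibrillar chain, fell by 0.58 to day 1 and then rose by 0.87 and 0.61.

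The basement membrane and anchoring collagens took other courses. COL4A1 (ENSG00000187498.17, chr13:110148963-110307157) was at 8.3 CPM (7.09 to 9.99) at 5 hr, 11.3 CPM (9.63 to 12.1) at day 1 and 7.56 CPM (5.49 to 8.95) at day 5, and COL4A2 (ENSG00000134871.20, chr13:110307284-110513209) at 19.9 CPM (16.1 to 21.8), 23.8 CPM (22.3 to 24.8) and 12.3 CPM (10.5 to 12.98). Both genes of this divergent pair rose to day 1, by 0.41 and 0.28, and fell at each later step, by 0.23 and 0.33 for COL4A1 and 0.49 and 0.45 for COL4A2. Over the whole span COL4A2 fell by 0.67 on the log2 scale (SE 0.048, adjusted p 5.7e-19), while the fall of COL4A1, -0.15 (SE 0.071, adjusted p 0.0451), was lost in 2 of 6 other settings and when 8 of the 34 libraries were left out singly. COL7A1, the chain of anchoring fibrils, was at 20.5 CPM (15.5 to 22.1) at 5 hr, 11.8 CPM (7.38 to 14.3) at day 1 and 26.8 CPM (24.2 to 29.4) at day 5, so that it dipped and then passed its first level. COL17A1 (ENSG00000065618.21, chr10:104031286-104085880) went from 194 CPM (182 to 219.6) at 5 hr down to 119 CPM (96.1 to 144) at day 3 and up to 254 CPM (182 to 274) at day 5, with a last step of 0.98 (SE 0.020, adjusted p 8.67e-43). COL18A1 fell over the span, by 0.34. Antisense transcripts of COL4A2, COL18A1, LAMA5, ITGB2 and ITGAL are listed as separate genes, and since the strand setting of the counting is not given in the sources used here, reads of such partners cannot be told apart.

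Step by step, 21 of the 46 members rose and 15 fell from 5 hr to day 1 (67.2% of all genes called), 22 rose and 17 fell from day 1 to day 3 (79.8%), and 25 rose and 11 fell from day 3 to day 5 (65.3%). Taken over the steps as the mean of the 3 lines, 7 rose at all 3 (COL1A2, COL3A1, COL5A3, COL6A1, COL6A2, LAMA5 and LAMB2), although the first step of COL6A1, 0.05, was lost in 5 settings. Another 7 rose to day 1 and then fell at both later steps (COL4A1, COL4A2, ITGA5, ITGAV, ITGB4, ITGB5 and LAMC1), and 6 fell to day 1 and then rose at both later steps (COL11A2, COL20A1, COL5A2, COL7A1, ITGB6 and LAMA4). The first step of LAMC1 reversed to -0.0084 when a trend with gene length was removed. A further 5 fell, fell and rose (COL17A1, COL18A1, COL27A1, ITGAE and ITGB1). Patterns over the steps were not counted for all genes, so these counts describe the members without a background. Several of these patterns of the mean did not hold in each line. From 5 hr to day 1, LAMA5, LAMB2 and COL6A1 fell in at least 1 line and rose in sgZBTB11 #2. From day 1 to day 3, ITGAV fell by 0.71 in sgZBTB11 #1 and was at 0.22 (SE 0.11, adjusted p 0.0692) in sgNS, COL27A1 rose by 0.32 in sgZBTB11 #1 and fell in the others, and ITGB1 fell by 0.14 in sgZBTB11 #1 and rose by 0.07 in sgZBTB11 #2.

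Other genes of adhesion and matrix, taken from lists made with earlier results of these data known, were called in both directions from 5 hr to day 5, against 85.9% of all genes called, so that these counts say little of the lists. Of 32 tested genes of the integrin adhesome, the cytoplasmic proteins that couple integrins to actin, 11 rose and 17 fell (median -0.29), among them PXN, which encodes the adaptor paxillin, at -2.06 (SE 0.021) and PTK2B, encoding a focal adhesion kinase relative, at 2.21 (SE 0.112). Of 22 genes of collagen processing, 9 rose and 12 fell (median -0.13), with PCOLCE, an enhancer of procollagen cleavage, at 2.26 (SE 0.093) and LOXL2, a collagen cross-linking oxidase, at -1.93 (SE 0.022). Of 10 matrix proteases and inhibitors 6 rose and 4 fell (median 0.18), with PLAUR, the urokinase receptor gene, at -2.95. Of 16 matrix glycoproteins and basement membrane genes 5 rose and 6 fell (median -0.28), including CCN1, a secreted matrix protein and YAP target, at -2.47 (SE 0.020). Of 17 other matrix receptors 5 rose and 12 fell (median -0.62), including the tetraspanin gene CD9 at -2.10 (SE 0.023). The median over all genes was 0.05.

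Between the lines in DMSO, averaged over the 4 times, 10 members were higher and 8 lower in sgZBTB11 #1 than in sgNS, against 30% of all genes called. In sgZBTB11 #2 against sgNS 8 were higher and 5 lower, against 18.8%, and between the ZBTB11 guide lines 9 were higher and 8 lower in the first, against 22%. Without the 5 hr libraries, an alternative added after seeing the data, the last count went from 17 to 10. Among members at 1 TPM or more, COL6A3 and COL3A1 differed most from sgNS in both lines.

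**Figure D3:**
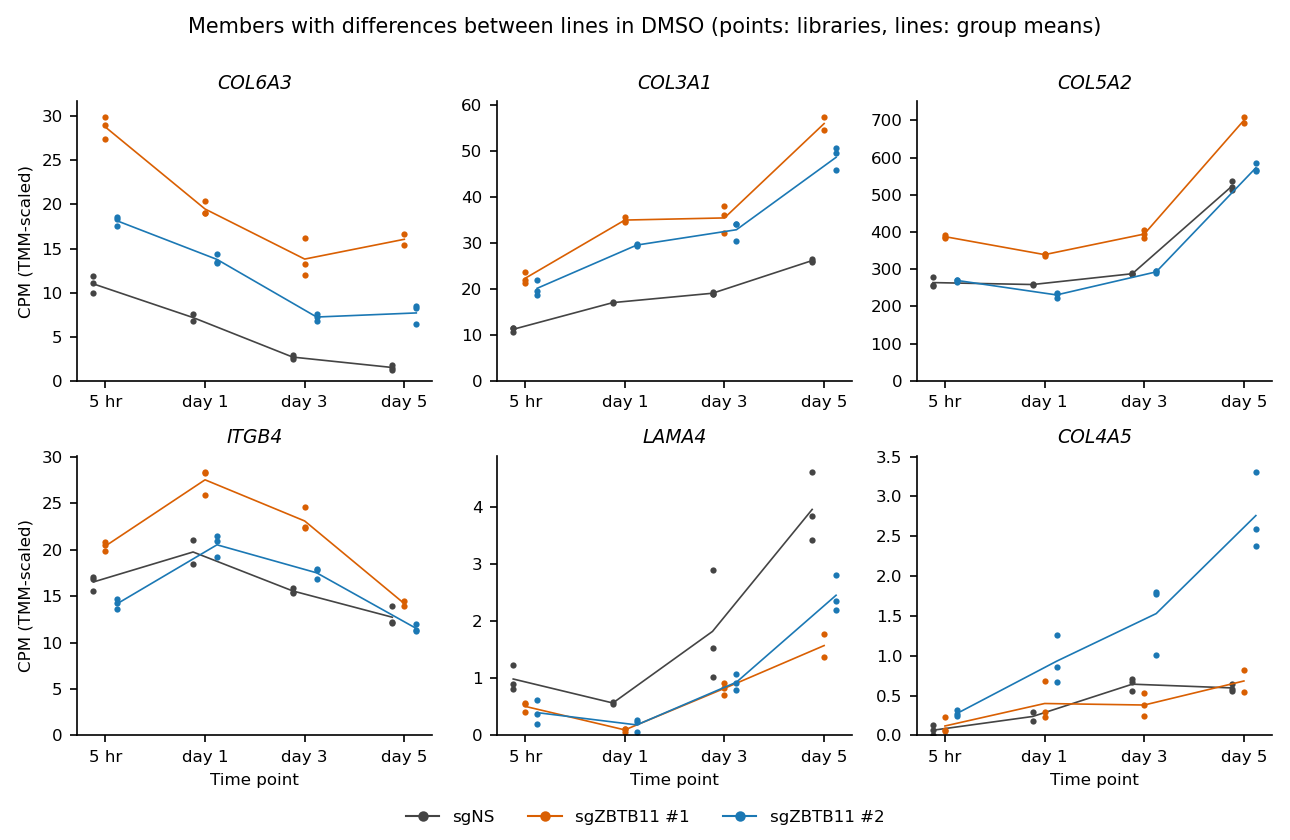
CPM (y axes, linear from 0) of COL6A3, COL3A1, COL5A2, ITGB4, LAMA4 and COL4A5 in the DMSO libraries of the 3 lines at 4 times (x axes), with points for libraries and lines through group means. The sgNS libraries lie lowest for COL6A3 and COL3A1 at every time, and COL4A5 is highest in sgZBTB11 #2 at day 5.

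At 5 hr the DMSO libraries of COL6A3 were at 9.97, 11.9 and 11.1 CPM in sgNS, 27.4, 29.02 and 29.9 in sgZBTB11 #1 and 18.6, 17.5 and 18.3 in sgZBTB11 #2. At day 5 they were at 1.23, 1.46 and 1.85 in sgNS, 16.7 and 15.4 in sgZBTB11 #1 and 8.22, 8.49 and 6.39 in sgZBTB11 #2. No libraries of different lines overlapped at either time, and the order was sgNS lowest and sgZBTB11 #1 highest at all 4 times. Averaged over times the difference from sgNS was 2.14 (SE 0.059, adjusted p 7.72e-35) on the log2 scale in sgZBTB11 #1 and 1.36 (SE 0.064, adjusted p 3.19e-24) in sgZBTB11 #2, and between the guide lines 0.79 (SE 0.046, adjusted p 4.03e-20). The gap widened with time, from 1.41 at 5 hr to 3.35 at day 5 in sgZBTB11 #1 and from 0.73 to 2.30 in sgZBTB11 #2, and the test of that widening gave 1.95 (SE 0.18, adjusted p 2.81e-12) and 1.57 (SE 0.19, adjusted p 4.77e-09). Within sgNS, COL6A3 fell by 2.79 from 5 hr to day 5, against 0.84 and 1.21 in the other lines. In sgNS it still fell from day 3 to day 5, by 0.80 (adjusted p 0.000684), where the change in the other lines was 0.21 (adjusted p 0.0821) and 0.07 (adjusted p 0.603).

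COL3A1 and COL5A2 are neighbours on chromosome 2 with a gap of 19151 bases. COL3A1 (chr2:188974373-189012746) was at 10.7, 11.5 and 11.4 CPM at 5 hr and 26.5, 26.002 and 25.9 at day 5 in sgNS, at 21.95, 21.3 and 23.6 and 57.3 and 54.5 in sgZBTB11 #1, and at 22.02, 19.6 and 18.7 and 45.8, 49.4 and 50.5 in sgZBTB11 #2. Both guide lines lay above sgNS without overlap at both times, by 1.01 (SE 0.035, adjusted p 1.52e-30) and 0.83 (SE 0.035, adjusted p 1.44e-26) over all times, and the difference was similar at each time, between 0.89 and 1.09 in the first and between 0.79 and 0.89 in the second. COL5A2 (chr2:189031898-189441111) was at 257, 256 and 279.5 CPM at 5 hr in sgNS, 386, 385 and 392 in sgZBTB11 #1 and 272, 267 and 271 in sgZBTB11 #2. Here sgZBTB11 #1 stood apart from both other lines, by 0.46 (SE 0.016, adjusted p 1.49e-30) from sgNS and 0.45 (SE 0.015, adjusted p 1.27e-30) from sgZBTB11 #2.

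Smaller differences ran through the integrins. ITGB4 at day 3 was at 15.9, 15.5 and 15.3 CPM in sgNS, 24.6, 22.4 and 22.3 in sgZBTB11 #1 and 17.95, 17.8 and 16.8 in sgZBTB11 #2, with sgZBTB11 #1 above the others. Its difference from sgNS in that line was 0.39 (SE 0.038, adjusted p 4.68e-12) over all times, but 0.16 (adjusted p 0.229) at day 5. Averaged over times, ITGB8 was lower than in sgNS in both other lines, by 0.42 and 0.20. ITGB1 was lower too, by 0.09 in each. At 5 hr, however, both genes lay higher in sgZBTB11 #2 than in sgNS without overlap. ITGB8 was at 47.5 to 52.6 against 43.4 to 46.7 CPM and ITGB1 at 1274 to 1321 against 1167 to 1224 CPM. On the same average COL17A1 was higher in both guide lines, by 0.25 and 0.20. COL27A1, a fibrillar chain of cartilage, was higher by 0.37 and 0.13. The COL17A1 difference did not hold at day 1 in sgZBTB11 #1, whose DMSO libraries then lay below those of sgNS. LAMA5 was lower in sgZBTB11 #2 by 0.09, but this rested on the 5 hr libraries, where the difference was -0.57, and without them it was 0.07 in the opposite direction.

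A pair of members below 1 TPM was chosen after their values were seen. LAMA4, a laminin alpha chain of vessels, was at 4.62, 3.42 and 3.84 CPM at day 5 in sgNS, 1.78 and 1.37 in sgZBTB11 #1 and 2.2, 2.35 and 2.82 in sgZBTB11 #2, with sgNS above both, and its differences over all times were -1.45 (SE 0.21, adjusted p 1.45e-07) and -1.11 (SE 0.19, adjusted p 1.57e-05). COL4A5, a collagen IV chain whose start site lies 380 bases from that of COL4A6, was at 0.65, 0.558 and 0.583 CPM in sgNS, 0.82 and 0.548 in sgZBTB11 #1 and 2.59, 3.31 and 2.38 in sgZBTB11 #2. Only sgZBTB11 #2 lay above sgNS at day 5, by 2.19 (SE 0.31, adjusted p 3.55e-07), whereas the difference in sgZBTB11 #1 was 0.19 (adjusted p 0.823), and the difference between the guide lines over all times was -1.58 (SE 0.23, adjusted p 3.94e-07).

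The change from 5 hr to day 5 was itself tested for a difference between lines. Against sgNS it was higher for 13 members and lower for 4 in sgZBTB11 #1 (18.5% of all genes called) and higher for 13 and lower for 3 in sgZBTB11 #2 (20.1%). Counted from day 1 in place of 5 hr, an alternative added after seeing the data, the calls were 11 and 9. COL6A3 (1.91 and 1.36 from day 1), COL17A1 (0.59 and 0.56), COL27A1 (0.68 and 0.26) and LAMA2 (0.32 and 0.46) were called in both lines from either start. LAMA5 in sgZBTB11 #2 was at 0.55 counted from 5 hr and -0.21 counted from day 1. At day 5 COL17A1 was at 182, 188 and 186 CPM in sgNS, 256 and 253 in sgZBTB11 #1 and 271, 274 and 273 in sgZBTB11 #2, with no overlap between sgNS and the others.

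Between DOX and DMSO at 5 hr the 3 lines gave different pictures. Of 39 members tested, 6 rose and 16 fell in sgNS, against 40.9% of all genes called. In sgZBTB11 #1, 9 rose and 13 fell, against 32.8%, and in sgZBTB11 #2, 8 rose and 4 fell, against 17%. Of the 22 members called in sgNS and the 22 called in sgZBTB11 #1, 16 were called in both, and all 16 had the same sign. Of the 12 called in sgZBTB11 #2, 11 were also called in sgNS and 9 in sgZBTB11 #1, all with the opposite sign, and these comparisons share no libraries. Such overlaps and signs were not counted over all genes, so they cannot be read as particular to these members. The difference between the ZBTB11 guides in the DOX change was called for 22 members, 12 higher and 10 lower in sgZBTB11 #2, against 35.1% of all genes.

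The laminin chains LAMA5 and LAMB2 were among them. LAMA5 at 5 hr was at 274, 291 and 299 CPM in DMSO and 193, 199 and 198 in DOX in sgNS, and at 245, 253 and 249.6 CPM in DMSO and 177, 188 and 196 in DOX in sgZBTB11 #1. In sgZBTB11 #2 it was at 192, 182 and 204 CPM in DMSO and 247, 244 and 249.5 in DOX. No DMSO and DOX libraries overlapped within a line, and the DMSO libraries of sgZBTB11 #2 (182 to 204) covered about the range of the DOX libraries of the other lines (177 to 199). LAMA5 fell by 0.53 on the log2 scale (SE 0.036, adjusted p 4.37e-14) in sgNS, fell by 0.41 on the log2 scale (SE 0.036) in sgZBTB11 #1 and rose by 0.37 on the log2 scale (SE 0.037) in sgZBTB11 #2, and the guides differed by 0.78 (SE 0.052, adjusted p 3e-14). LAMB2 fell by 0.37 and 0.41 in the first and second of these lines and rose by 0.36 in the third. COL7A1 did likewise, at -0.66, -0.50 and 0.31, as did COL27A1, COL11A2, COL18A1 and COL6A1.

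Several integrin chains changed in the direction opposite to LAMA5. ITGB8 (ENSG00000105855.10, chr7:20329766-20415754) at 5 hr went from 44.3, 43.4 and 46.7 CPM in DMSO to 68.5, 59.3 and 65.2 in DOX in sgNS, from 37.8, 38.5 and 38.9 CPM in DMSO to 45.95, 48.5 and 47.5 in DOX in sgZBTB11 #1, and from 49.9, 52.6 and 47.5 CPM in DMSO to 42.1, 42.5 and 43.8 in DOX in sgZBTB11 #2. It rose by 0.54 and 0.30 and fell by 0.21, without overlap in any line. ITGA6 rose by 0.45 and 0.37 in sgNS and sgZBTB11 #1 and fell by 0.27 in sgZBTB11 #2. ITGAV rose by 0.66 and 0.41 in the same lines, and its change in sgZBTB11 #2 was -0.13 (adjusted p 0.185). ITGB1 rose by 0.18 in sgNS and fell by 0.16 in sgZBTB11 #2. The net response, the mean DOX change of the ZBTB11 guides minus that of sgNS, was higher for 9 members and lower for 5 at 5 hr (30% of all genes), but it averages guides that differed, and ZBTB11 was not lower in sgZBTB11 #1 at this time. What set the lines apart at 5 hr was not tested.

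**Figure D4:**
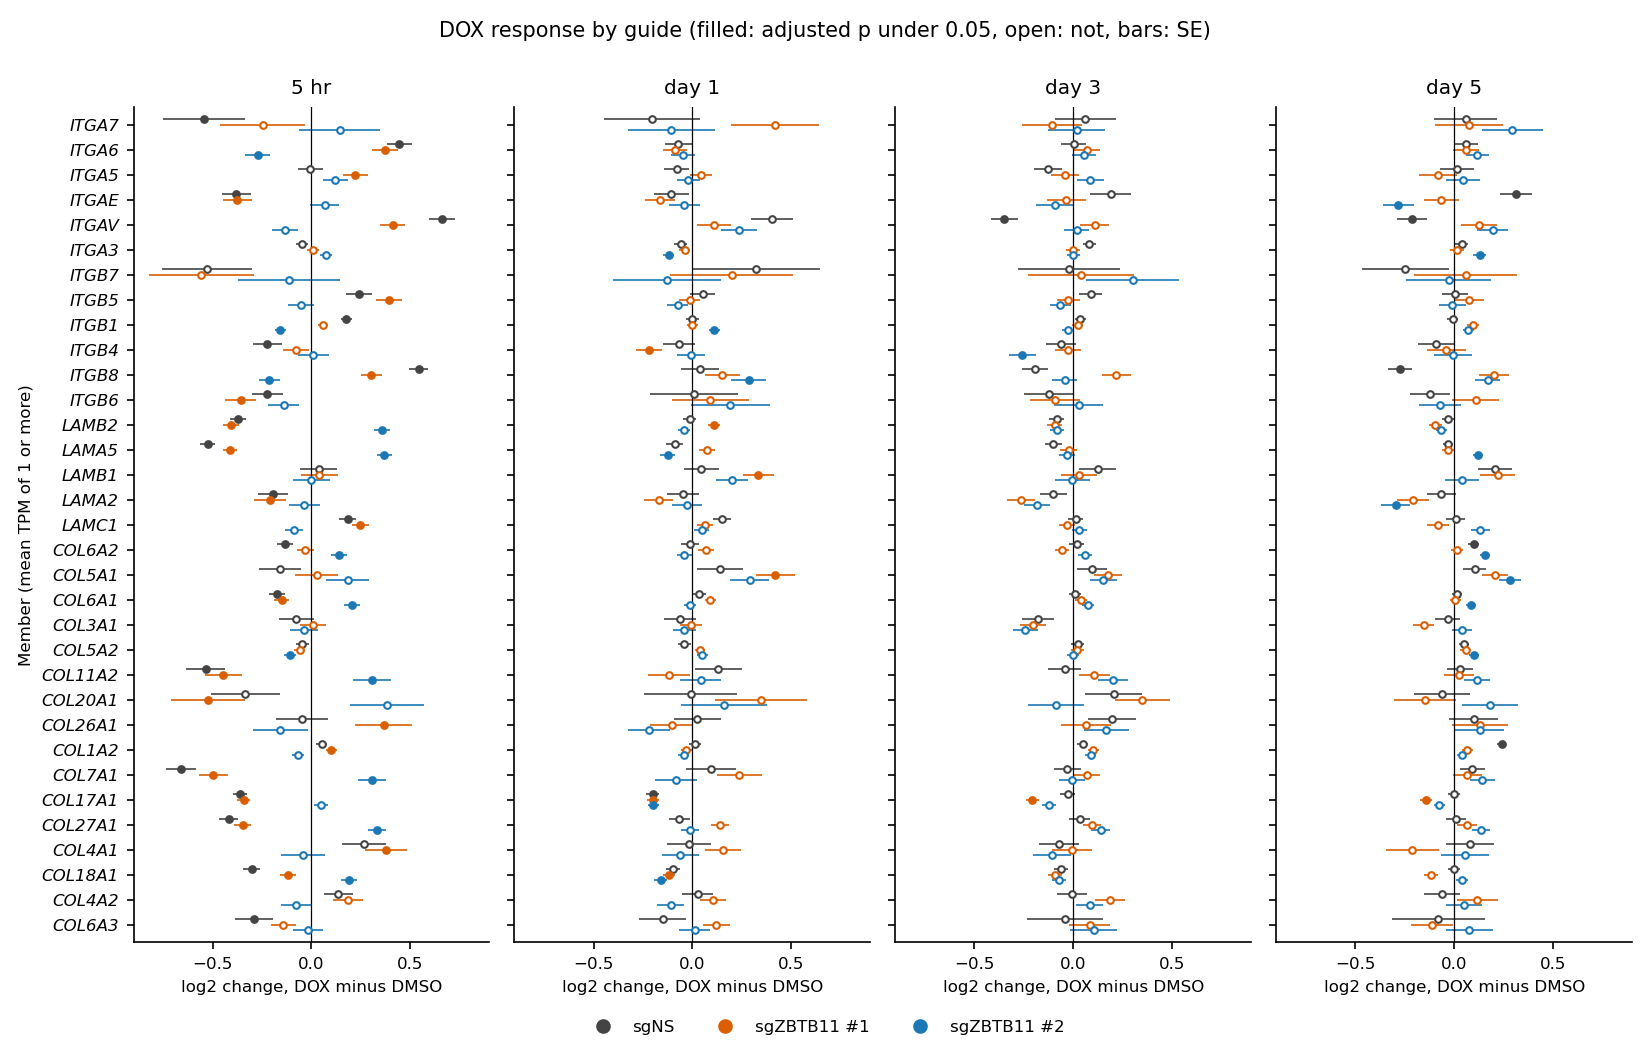
log2 change between DOX and DMSO (x axes) of the 33 members with a mean of at least 1 TPM at 5 hr, day 1, day 3 and day 5, with bars for the SE, 1 colour per guide line, and filled points where the adjusted p was under 0.05. At 5 hr the sgZBTB11 #2 points lie on the opposite side of 0 from the other lines for LAMA5, LAMB2, COL7A1, ITGA6 and ITGB8, and from day 1 on most points lie near 0.

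At day 1 few members were called: 1 lower in sgNS (2.19% of all genes called), 3 higher and 3 lower in sgZBTB11 #1 (4.84%), and 2 higher and 4 lower in sgZBTB11 #2 (7.88%). COL17A1 was called in all 3 lines. It went from 163 and 168 CPM in DMSO to 143, 143 and 139.9 in DOX in sgNS, from 151, 147 and 152 CPM in DMSO to 130.4, 129 and 127 in DOX in sgZBTB11 #1, and from 162, 164 and 168 CPM in DMSO to 144, 142 and 141 in DOX in sgZBTB11 #2. The DOX libraries lay below the DMSO libraries of their line each time, by 0.20 (adjusted p 0.000191), 0.20 (adjusted p 2.03e-05) and 0.20 (adjusted p 1.78e-05) on the log2 scale, the sgNS line included. COL18A1 fell by 0.12 and 0.16 in the ZBTB11 guide lines. In sgZBTB11 #1, COL5A1 rose from 7.55, 7.04 and 9.42 CPM in DMSO to 10.9, 10.3 and 10.4 in DOX (log2 change 0.42, SE 0.10, adjusted p 0.00803), and LAMB1 rose by 0.33, but DESeq2 called 1 member in that line where edgeR called 6. The net response called 0 of 40 members by edgeR (0.0737% of all genes) and 0 by DESeq2, with 3 at an unadjusted p under 0.05, all of them higher, and the guides differed for 0 members by edgeR (0.0614%), with 7 at an unadjusted p under 0.05.

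At day 3, 1 member was called in each line and 1 in the net response. In sgNS ITGAV went from 29.9, 35.3 and 36.5 CPM in DMSO to 27.03, 26.8 and 25.9 in DOX, lower without overlap, by 0.35 (adjusted p 0.0037; 0.877% of all genes called). In sgZBTB11 #1 COL17A1 went from 144, 141 and 138 CPM in DMSO to 124, 124 and 119 in DOX and fell by 0.21 (adjusted p 0.000526; 0.733%). In sgZBTB11 #2 ITGB4 went from 17.95, 17.8 and 16.8 CPM in DMSO to 14.1, 14.9 and 15.001 in DOX and fell by 0.26 (adjusted p 0.0498; 1.17%), a call that was lost in 4 of 6 other settings. The net response called ITGAV, at 0.41 (SE 0.083, adjusted p 0.00834) against 0.493% of all genes, lost when 3 of 18 libraries were left out singly. That net value holds the fall in sgNS as well as the values of the ZBTB11 guide lines, where ITGAV was at 25.7, 22.6 and 24.4 CPM in DMSO and 26.7, 24.8 and 26.9 in DOX in sgZBTB11 #1, and at 29.7, 28.4 and 26.04 CPM in DMSO and 28.99, 26.3 and 29.9 in DOX in sgZBTB11 #2. In both of those lines the DMSO and DOX libraries overlapped, and the guides differed for 0 members by edgeR (0.018% of all genes), with 4 at an unadjusted p under 0.05.

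At day 5, the net response was higher for 3 members and lower for 3 of 43, against 19.2% of all genes called. ITGB8 was at 36.6, 33.6 and 36.8 CPM in DMSO and 32.1, 28.5 and 28.1 in DOX in sgNS, at 24.4 and 26.3 CPM in DMSO and 29.6, 27.5 and 29.8 in DOX in sgZBTB11 #1, and at 28.6, 29.3 and 28.3 CPM in DMSO and 30.3, 31.5 and 35.5 in DOX in sgZBTB11 #2. With DOX it was lower in sgNS and higher in both guide lines, without overlap in any line, and the net value was 0.46 (SE 0.078, adjusted p 8.38e-06), of which only the fall in sgNS, 0.28 (adjusted p 0.000666), was called on its own. ITGAV, its alpha partner, was at 21.4, 17.8 and 20.4 CPM in DMSO and 17.7, 16.4 and 17.4 in DOX in sgNS, at 16.5 and 16.6 CPM in DMSO and 17.7, 18.2 and 18.1 in DOX in sgZBTB11 #1, and at 17.2, 18.2 and 14.9 CPM in DMSO and 18.1, 20.7 and 19.3 in DOX in sgZBTB11 #2. Its net value was 0.37 (SE 0.098, adjusted p 0.00369), with the lines again on opposite sides of 0. That call was lost when a trend with gene length was removed. ITGB1, which also pairs with ITGAV, had a net value of 0.09 (SE 0.033, adjusted p 0.0445), lost in 4 of 6 other settings.

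**Figure D5:**
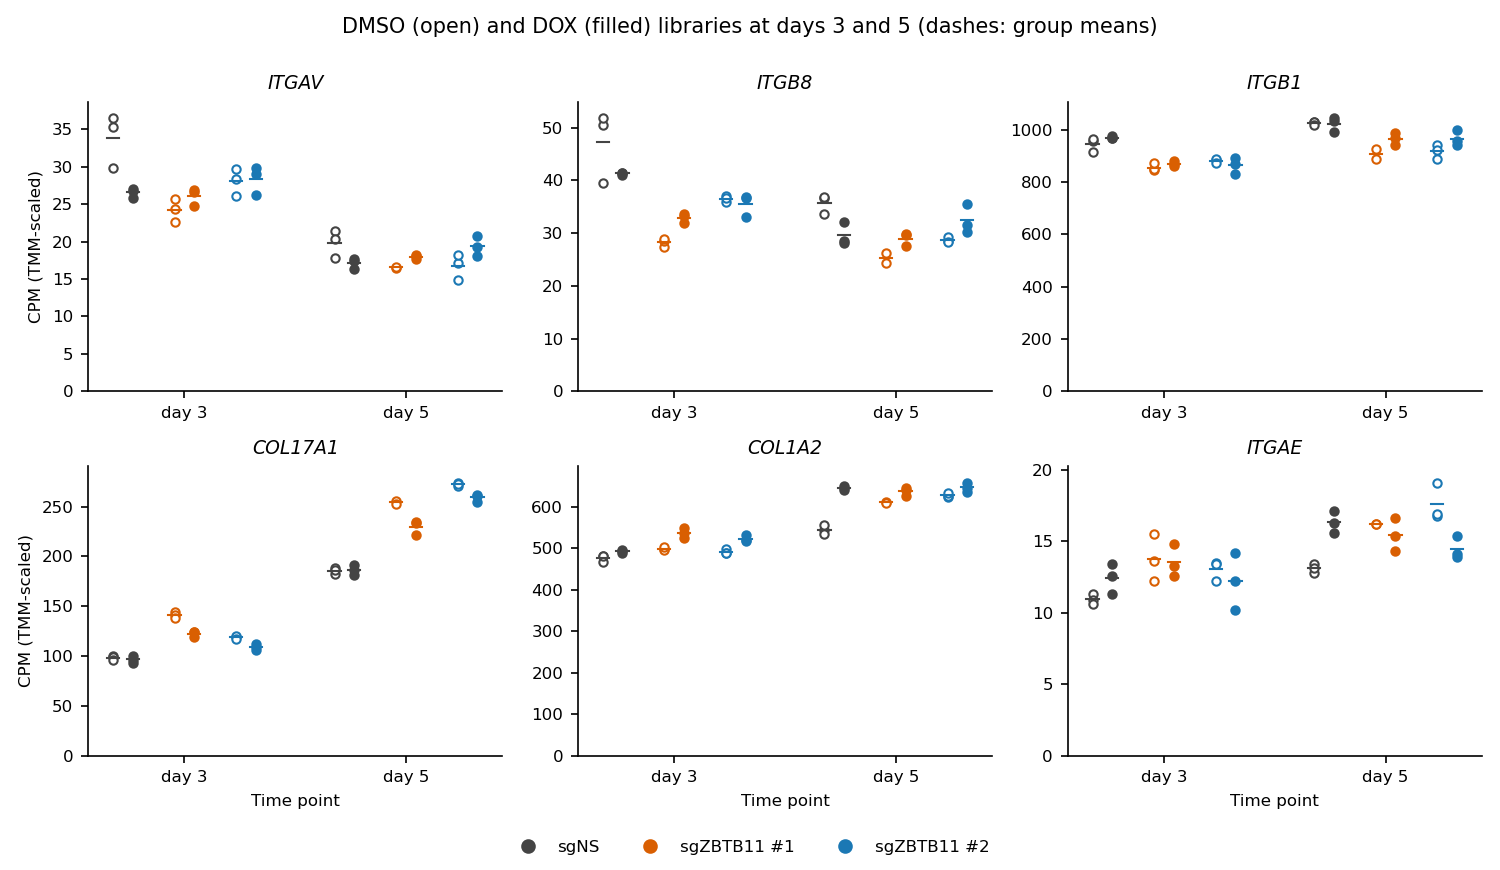
CPM (y axes, linear from 0) of ITGAV, ITGB8, ITGB1, COL17A1, COL1A2 and ITGAE in the DMSO (open) and DOX (filled) libraries of the 3 lines at days 3 and 5 (x axes), with dashes for group means. At day 5 the sgNS and sgZBTB11 #2 libraries move in opposite directions with DOX for ITGB8 and ITGAE.

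The negative net values at day 5 were those of ITGAE, COL1A2 and COL17A1. ITGAE was at 13.4, 12.8 and 13.1 CPM in DMSO and 15.6, 17.1 and 16.3 in DOX in sgNS, where it rose by 0.31, and at 19.1, 16.8 and 16.9 CPM in DMSO and 15.4, 14.1 and 13.9 in DOX in sgZBTB11 #2, where it fell by 0.28. In sgZBTB11 #1 its libraries, 16.2 and 16.2 CPM in DMSO and 14.3, 15.4 and 16.6 in DOX, overlapped, and the net value was -0.49 (SE 0.10, adjusted p 0.000242). COL1A2 was at 544, 535 and 556 CPM in DMSO and 651, 641 and 646 in DOX in sgNS, a rise of 0.24 (SE 0.024, adjusted p 2.86e-11). In the guide lines it was at 612 and 609.7 CPM in DMSO and 625, 641 and 645 in DOX in sgZBTB11 #1 and at 624, 627 and 633 CPM in DMSO and 645, 658 and 636 in DOX in sgZBTB11 #2, differences that were not called. So the net value of COL1A2, -0.19 (SE 0.030, adjusted p 3.04e-06), came with a rise in sgNS and no called fall in the other lines. COL17A1 at day 5 fell in sgZBTB11 #1, from 256 and 253 CPM in DMSO to 221, 233 and 235 in DOX (log2 change -0.14, SE 0.031, adjusted p 0.00997; 1.14% of all genes called in that line), a call lost when 3 of 17 libraries were left out singly. Its net value, -0.11, was lost in 2 of 6 other settings.

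Within sgNS at day 5, 3 members rose and 2 fell with DOX (17.3% of all genes), the fall of ITGAV being lost in all 6 other settings. Within sgZBTB11 #2, 6 rose and 2 fell (9%). The rises in sgZBTB11 #2 were led by COL5A1, which went from 34.4, 35.2 and 34.1 CPM in DMSO to 43.9, 38.6 and 43.4 in DOX (log2 change 0.28, SE 0.055, adjusted p 0.000229). COL6A2 went from 509, 499 and 519 CPM in DMSO to 570.4, 585 and 549 in DOX and LAMA5 from 434, 431 and 432 CPM in DMSO to 473, 479 and 459.7 in DOX, with rises of 0.16 and 0.12 and no overlap. COL6A2 also rose in sgNS, by 0.10. LAMA2 fell in sgZBTB11 #2, from 22.3, 20.9 and 20.96 CPM in DMSO to 17.8, 15.8 and 18.7 in DOX (log2 change -0.30, SE 0.073, adjusted p 0.00413). The DOX change differed between the ZBTB11 guides for LAMA5 (log2 change 0.15, SE 0.039, adjusted p 0.0195) and COL6A2 (log2 change 0.14, SE 0.041, adjusted p 0.0497), against 2.58% of all genes. Of the pathway lists, read against the 19.2% of all genes called, the net response at day 5 was higher for 5 and lower for 1 of 17 other matrix receptors, with SDC4, a syndecan, at 0.40 and DDR2, a collagen-binding kinase, at 0.30. It was higher for 4 and lower for 1 of 22 collagen processing genes, with SERPINH1, a collagen chaperone, at 0.28 (SE 0.038), and higher for 3 of 10 proteases and inhibitors, ADAM10 (0.41) and ADAM17 (0.25) among them. In the other lists it was higher for 4 and lower for 1 of 31 adhesome genes and higher for 2 and lower for 1 of 13 matrix glycoproteins and basement membrane genes.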

How the data were processed

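Poly(A)-selected RNA of 70 libraries was sequenced as paired reads. The authors deposited, per the file headers, expected counts and TPM per gene, and per the submitters' processing notes these were made with RSEM on GRCh38.p14. The aligner, the versions and the use of strand were not given in the sources used here. Expected counts were rounded to whole numbers (5.13% of values were not whole). Members and lists were chosen with earlier results of these data known. The named genes were members past the threshold at a mean of 1 TPM or more, the 10 largest rises and falls per result, every member at 10 TPM or more, ITGAV with its beta partners, and up to 4 genes per list. Counts were filtered with filterByExpr, scaled by TMM and tested with edgeR 4.0.16 (R 4.3.3, quasi-likelihood, Benjamini-Hochberg over all genes tested), in 1 fit of the 34 DMSO libraries and 1 fit per time for DOX, which pool the spread over their groups. Contrasts within a line, between lines at 1 time and between guides came from the same fits and were added after the data were seen. CPM values are TMM-scaled over all 70 libraries, and TPM was used only for levels. For some members, ITGAV, ITGB1 and ITGB4 among them, these scales gave different changes over time. As alternatives, the scaling was changed to RLE, the tool to DESeq2 1.42.0, the filter was dropped, and the other fits were the replicate block, 1 fit of all 70 libraries, removal of a trend with gene length, and leaving out each library. No library was a copy of another: the 68 pairs of replicates differed by 1.33 to 4.93 times the sampling noise (chi-square per degree of freedom). The scripts were tested on simulated counts. Coordinates are those of GRCh38.p14 from RefSeq, which held all 81 members. Depth, 12068842 to 20627642 counts per library, leaves a member with no count at up to 0.145 to 0.249 CPM.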

Additional observations from a re-analysis of the deposited data

Results flagged for a closer look

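Members with a mean of at least 1 TPM are given here where the effect of time or of DOX differed between the lines by a test of that difference itself (edgeR, adjusted p under 0.05), with the difference on the log2 scale. In the change from 5 hr to day 5 in DMSO, sgZBTB11 #1 exceeded sgNS for COL6A3 (1.95), COL26A1 (0.55), LAMB1 (0.51), ITGAE (0.39), COL27A1 (0.36), LAMA2 (0.32), COL18A1 (0.30), COL6A2 (0.29), COL17A1 (0.28), COL1A2 (0.19), LAMA5 (0.18) and COL6A1 (0.14). It lay below sgNS for COL5A2 (-0.16), ITGB1 (-0.21), LAMB2 (-0.28) and ITGAV (-0.52). The same change in sgZBTB11 #2 exceeded that in sgNS for COL6A3 (1.57), ITGAE (0.59), COL17A1 (0.59), LAMA5 (0.55), COL27A1 (0.51), LAMA2 (0.44), COL7A1 (0.42), COL18A1 (0.36), LAMB2 (0.35), COL6A1 (0.35), COL6A2 (0.26) and COL1A2 (0.21), and lay below it for ITGB1 (-0.27), ITGB8 (-0.49) and ITGAV (-0.59). The signs of LAMB2, LAMA5, COL7A1, ITGB1 and COL5A2 in these lists depend in at least 1 line on counting from 5 hr and not from day 1. Counted from day 1, with the sign kept, the difference was no longer called in sgZBTB11 #1 for ITGAE (0.32, adjusted p 0.0896), LAMA5 (0.12), COL1A2 (0.05), COL26A1 (0.03) and ITGB1 (-0.10). In sgZBTB11 #2 this held for COL18A1 (0.11), COL6A2 (0.09), COL6A1 (0.02), ITGB8 (-0.01) and ITGAV (-0.33, adjusted p 0.266). Below 1 TPM, ITGA10 also exceeded sgNS in both lines (0.93 and 0.76), from day 1 with a call in sgZBTB11 #1 only (1.41, against 0.42 in sgZBTB11 #2).

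In the DOX response of the ZBTB11 guide lines against that of sgNS at 5 hr, the difference was positive for COL7A1 (0.56), LAMA5 (0.50), COL11A2 (0.47), COL27A1 (0.41), LAMB2 (0.34), COL18A1 (0.34), COL17A1 (0.21), COL6A1 (0.20) and COL6A2 (0.19). It was negative for ITGB1 (-0.23), ITGA6 (-0.39), ITGB8 (-0.50) and ITGAV (-0.52), and below 1 TPM also for ITGAM (-1.62). ITGAM lay near the floor, at 0.165 to 0.273 CPM in DMSO and 0.477 to 0.523 in DOX in sgNS. Its mean TPM there was 0.26 in DMSO and 0.263 in DOX. The 5 hr values average guides whose own changes were called with opposite signs for 9 of these genes. At day 3 the difference was positive for ITGAV (0.41). At day 5 it was positive for ITGB8 (0.46), ITGAV (0.37) and ITGB1 (0.09) and negative for COL17A1 (-0.11), COL1A2 (-0.19) and ITGAE (-0.49).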

How the results depend on the processing

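Replicate numbers did not pair the libraries in general: same-numbered libraries of different groups had deviations with a median correlation of 0.014, 0.00775, 0.0149 and -0.0133 at 5 hr and days 1, 3 and 5. Correlations over 0.1 were found for 10 of 45, 4 of 40, 10 of 45 and 2 of 40 such pairs. The highest were 0.189, 0.301, 0.22 and 0.145, so the medians cannot exclude pairing between some groups. With the replicate block 16 of 25 counts of called members were identical, and the sole one moved by over 1.5 times was DOX in sgZBTB11 #2 at day 3, 0 in place of 1; of single genes 7 calls were lost, 6 gained and 0 reversed. Without the 5 hr libraries the count between the ZBTB11 guide lines was 10 in place of 17, and COL6A1 (0.0494) and LAMA5 (0.0691) reversed in sgZBTB11 #2 against sgNS, as did LAMA5 between the guide lines (-0.0658). Counted from day 1, the differences in the time change were 11 and 9 in place of 17 and 16, and those reversed were COL5A2 (0.0230) and LAMB2 (0.0581) in sgZBTB11 #1 and COL7A1 (-0.14), ITGB1 (0.0713), LAMA5 (-0.21) and LAMB2 (-0.12) in sgZBTB11 #2. The small DOX counts moved most. With 1 fit of all 70 libraries, DESeq2, the length trend removed and no filter, sgNS at day 1 gave 2 members each in place of 1, and sgZBTB11 #1 at day 3 gave 3, 2, 2 and 2 in place of 1. For sgZBTB11 #2 at day 3 the count was 4, 0 with DESeq2 and with RLE scaling, and 3 with the length trend removed. DESeq2 gave 1 in place of 6 for sgZBTB11 #1 at day 1, no filter gave 2 in place of 1 for sgNS and for the net response at day 3, and the length trend gave 2 in place of 1 for sgZBTB11 #1 at day 5. Removing that trend reversed LAMC1 from 5 hr to day 1 (-0.0084) and in sgNS with DOX at 5 hr (-0.0070), and COL5A2 in the net response at 5 hr (0.13) and day 5 (-0.13). The cause of these shifts was not tested beyond the construction of each setting.

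Leaving out single libraries gave 33 to 36, 36 to 40, 32 to 38 and 42 to 45 members for the 3 time steps and the whole span, 15 to 20, 11 to 14 and 16 to 18 for the lines, and 12 to 19 and 15 to 17 for time by line. For sgNS, sgZBTB11 #1, sgZBTB11 #2 and the net response to DOX it gave 17 to 24, 18 to 23, 10 to 13 and 14 to 17 at 5 hr, 1 to 3, 1 to 8, 3 to 6 and 0 to 0 at day 1, 0 to 2, 1 to 3, 0 to 2 and 0 to 2 at day 3, and 3 to 5, 0 to 1, 6 to 9 and 4 to 7 at day 5. Over all named genes, results and other settings, 5602 runs came out as reported, which includes genes called in neither fit. In 144 runs a call was lost, in 83 a call was gained and in 13 the sign reversed. Depth limits what can be said of the 36 members below 0.1 TPM.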
